A study of Mus musculus with 6 samples.

Results

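The cytosolic ribosomal proteins are the protein components of the 40S and 60S subunits of the ribosome that translates nuclear messenger RNAs. Members were chosen by name, as the rows of the count table called Rpl or Rps with a number, together with Rplp0, Rplp1, Rplp2 and Rpsa. Processed copies named with "-ps" and the Rps6k kinases were left out, and a count sum of at least 60 over the 6 libraries was required. Of 22695 rows, 82 matched the name rule and 81 passed the count sum. The row left out was Rpl10l, a paralog of Rpl10 known from testis, with a count of 0 in all 6 libraries. The lowest member was Rpl39l with a summed count of 353, and the next was Rps27 with 1987. All 81 members also passed the filter on low counts and were tested. They comprised 75 canonical genes, 31 of the 40S and 44 of the 60S subunit, and 6 paralogs, which were Rpl3l, Rpl7l1, Rpl22l1, Rpl39l, Rps27l and Rps4l. No row matched the name rule for Rpl13 or Rpl13a, so the 60S set lacks these genes.

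The libraries were made from inguinal white adipose tissue, a fat depot under the skin of the groin, of mice aged 20 months. The 3 samples of the GSNOR KO group had the genotype C57BL/6J-GSNOR KO, and the 3 samples of the WT group had the genotype C57BL/6J-WT. GSNOR, S-nitrosoglutathione reductase, is the enzyme that breaks down S-nitrosoglutathione and is encoded by Adh5. The labels do not say whether each sample came from its own animal or how the knockout was made, so p-values reflect only how far these samples vary, which may in part be technical.

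Ribosomal protein genes are transcribed at high levels in every cell that grows or secretes, and their products are assembled together into each ribosome. Their messenger RNAs start with a 5′ terminal oligopyrimidine (TOP) stretch, a C followed by further pyrimidines, through which the mTORC1 pathway and the RNA-binding protein Larp1 set their translation. In adipose tissue, mTORC1 is known for its part in adipocyte growth and lipid storage. Messenger RNA levels, as measured here, do not show how much of each protein was made.

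Transcription start windows are shown for 7 members whose values are given below, because the TOP stretch is what this gene family is known to share. Each window holds 30 bases, 15 before the start listed by RefSeq and 15 from it onwards, on the gene's own strand in GRCm38.p6. Capitals mark a run of at least 5 pyrimidines, counted from a C at the start or within 5 bases of it on either side. The C nearest the start that opens such a run was taken, and pyrimidines before it are not in capitals. A window with no capitals has no run of that length there.
Rps6, chr4:86857353-86857382, minus strand: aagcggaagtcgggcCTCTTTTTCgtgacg
Rpl28, chr7:4792950-4792979, plus strand: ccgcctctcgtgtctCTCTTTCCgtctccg
Rplp2, chr7:141447636-141447665, plus strand: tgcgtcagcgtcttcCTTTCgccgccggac
Rpl12, chr2:32961697-32961726, plus strand: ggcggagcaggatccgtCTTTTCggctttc
Rpl22l1, chr3:28805493-28805522, plus strand: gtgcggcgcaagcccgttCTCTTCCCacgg
Rps4x, chrX:102189377-102189406, minus strand: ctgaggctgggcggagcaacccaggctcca
Rpl3l, chr17:24727811-24727840, plus strand: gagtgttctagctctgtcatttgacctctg
In Rps6, Rpl28 and Rplp2 the marked run began at the listed start, but pyrimidines also lay directly before it. The marked run began 2 bases after the listed start in Rpl12 and 3 bases after it in Rpl22l1. Rps4x and Rpl3l held no run of at least 5 pyrimidines from a C within 5 bases of the listed start. RefSeq's promoter table held 60 of the 81 members. A C followed by 4 bases that are each C or T, read on the gene's strand from the listed start, was present in 13 of these 60 (21.7%), against 3.01% of all 27025 genes in the table. Allowing the same letters to begin up to 5 bases before or after the start gave 28 of 60 (46.7%), against 21.2% of all genes. A listed start that is a few bases off changes this count, and a match is a description of the letters only.

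Total counts lay between 21223848 and 23961574 in GSNOR KO libraries and between 20277594 and 22793152 in WT libraries, so 3 counts corresponded to 0.131 to 0.138 CPM, counts scaled to a common library total with TMM factors. Mitochondrially encoded transcripts accounted for 28.8 to 37.8% of the counts. The targeted gene Adh5 averaged 4.296 ± 0.682 CPM in GSNOR KO and 67.3 ± 9.08 CPM in WT (SD, n = 3 each; log2 fold change -3.97, SE 0.171, edgeR adjusted p = 0.000135). The 11 adipocyte marker genes summed to 16570 to 18850 CPM in GSNOR KO and 15060 to 17670 CPM in WT. At an edgeR adjusted p under 0.05, 1 of them was higher and 1 lower, beside 3.9 and 3.14% of all tested genes. Their log2 fold changes ran from -4.03 to 0.525, with 3 below 0 and 8 above. Of 8 mammary epithelial markers, 6 stayed under 0.5 CPM, among them Krt8, Krt18 and Epcam. WT replicate 1 stood apart from the other libraries. All 17 skeletal muscle markers and 13 of 14 macrophage markers were highest there, and the values without it are given beside the members that moved most with it.

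Ribosomal protein messenger RNAs were mostly not called different between GSNOR KO and WT fat. In edgeR's quasi-likelihood test, adjusted over 13694 tested genes and called under 0.05, 1 of 81 members was higher in GSNOR KO, against 3.9% of all tested genes. None of the 81 was lower, against 3.14% of all tested genes. The called member was Rps4l, a paralog row, and no canonical member was called. At an unadjusted p under 0.05, 2 members were higher, against 12.9% of all genes, and 10 were lower, against 15.7%. DESeq2 called 2 members higher (Rps4l and Rpl36), against 8.35% of all genes, and 1 lower (Rpl3l), against 8.76%.

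Fold changes of the members were small and mostly below 0. The log2 fold change was below 0 in 66 of 81 members (81.5%), against 54.5% of all tested genes. The median over the members was -0.17, against -0.04 over all tested genes, and the middle range from the first to the last quartile ran from -0.28 to -0.03. Canonical members spanned -0.53 (Rpl12) to 0.25 (Rplp2), with a median of -0.19 for the 40S genes and -0.14 for the 60S genes. All 3 GSNOR KO values lay below all 3 WT values in 24 members (29.6%), against 19.5% of all genes, and above them in 4 members (Rpl19, Rpl28, Rpl36 and Rps4l), against 17.3%.

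**Figure D1:**
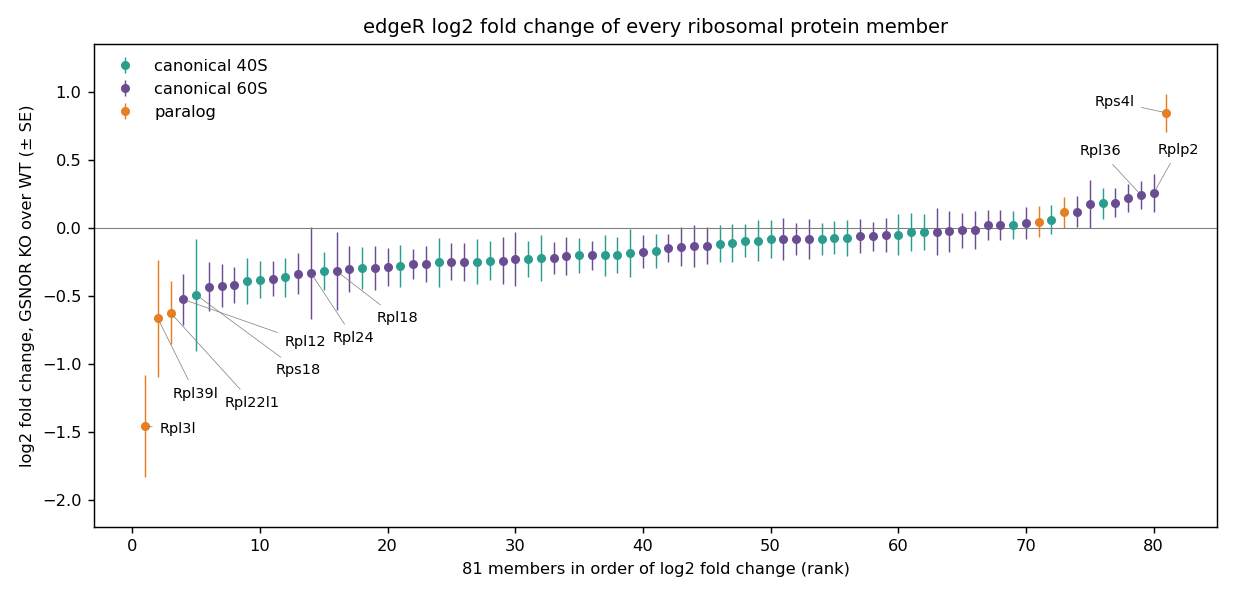
Log2 fold change (GSNOR KO over WT, vertical axis) of each of the 81 members in rank order (horizontal axis), with bars for the standard error from the edgeR fit (n = 3 each). Most canonical 40S and 60S genes lie between -0.53 and 0.25, and the paralogs Rpl3l (-1.46) and Rps4l (0.84) stand at the ends.

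The lean below 0 rested on WT replicate 1. Canonical members deviated from their own 6-library means by a median of -0.01, -0.16 and -0.04 on the log2 scale in GSNOR KO replicates 1 to 3, and by 0.29, -0.03 and -0.03 in WT replicates 1 to 3. Only WT replicate 1 lay clearly above the rest, and WT replicates 2 and 3 sat between GSNOR KO libraries. That library gave the highest value of the 6 in 72 of 81 members (88.9%), against 29.8% of all tested genes. GSNOR KO replicate 2 gave the lowest value in 51 members (63.0%), but the share of all tested genes lowest there is not given. Without WT replicate 1, the median log2 fold change of the members was -0.01, against -0.01 over all genes, and 42 of 81 members lay below 0 (51.9%), against 51.4% of all genes. In that fit 4 members were called higher (Rps4l, Rpl41, Rplp2 and Rpl36), against 11.8% of all genes, and 1 was called lower (Rpl3l), against 8.77%. Macrophage markers summed to 725.1 CPM in WT replicate 1, against 139.1 to 186.1 CPM in GSNOR KO libraries and 308.0 to 316.5 CPM in WT replicates 2 and 3, with all 14 markers tested. Whether the other cell types in that library, or another property of it, bear on the member values was not tested. In tissue RNA, fewer cells of a type and less RNA per cell cannot be told apart.

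**Figure D2:**
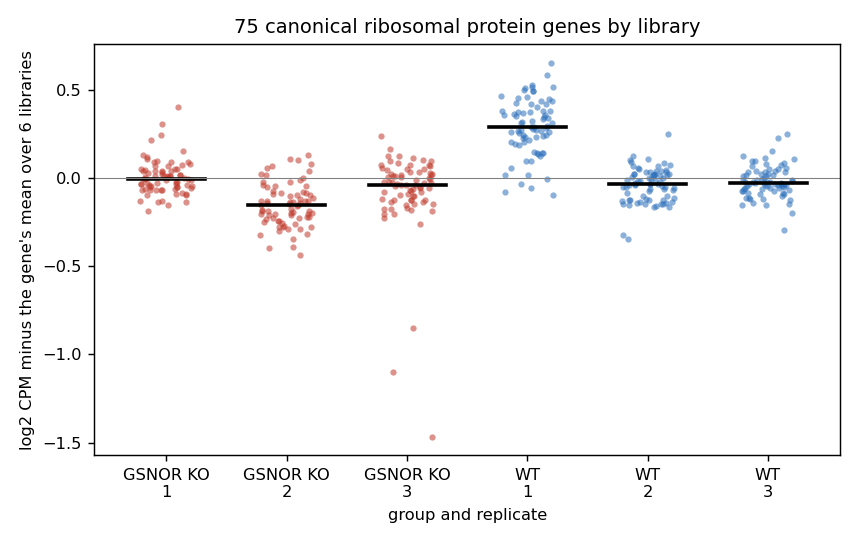
Each point is 1 of 75 canonical members in 1 library, as log2 CPM minus that gene's mean over the 6 libraries (vertical axis), and the black line is the median. WT replicate 1 has a median of 0.29 and GSNOR KO replicate 2 one of -0.16, while the other 4 libraries lie near 0; 3 points fall far below the rest in GSNOR KO replicate 3.

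As a share of all counts, the members took 2.33, 1.87 and 2.08% in GSNOR KO replicates 1 to 3, against 2.70, 2.06 and 2.34% in WT replicates 1 to 3. The groups overlapped, and the means of 2.09 ± 0.232% in GSNOR KO and 2.37 ± 0.318% in WT (SD, n = 3 each) differed by 0.274 percentage points, less than the pooled SD of 0.279. Of the counts outside the mitochondrial genome they took 3.10 ± 0.209% in GSNOR KO and 3.50 ± 0.254% in WT. There every GSNOR KO library (2.89 to 3.31%) lay below every WT library (3.32 to 3.79%), with the closest pair 3.306% in GSNOR KO and 3.318% in WT. The relative spread between replicates of a canonical member had a median of 6.54% in GSNOR KO and 13.8% in WT. Between WT replicates 2 and 3 alone it was 2.97%.

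In the 40S subunit, none of the 9 listed genes of the decoding site and messenger RNA path was called (median log2 fold change -0.19), and neither was any of the 9 listed for the head and the side that holds Rack1 (median -0.08). At an unadjusted p under 0.05, 0 genes of the first list and 1 of the second, Rps3a1, were lower, against 15.7% of all tested genes. DESeq2 called none in either list. Rps6, the 40S protein that the S6 kinases phosphorylate downstream of mTORC1, had 340.4, 306.3 and 346.6 CPM in GSNOR KO, against 443.2, 361.8 and 359.3 CPM in WT. The groups did not overlap, but the closest libraries were 346.6 CPM in GSNOR KO and 359.3 CPM in WT, and the log2 fold change of -0.23 (SE 0.131) had an edgeR adjusted p of 0.292. It was -0.09 (adjusted p = 0.522) with WT replicate 1 left out. Rps15, whose product has a tail that reaches the decoding centre, averaged 420.0 ± 21.6 CPM in GSNOR KO and 371.1 ± 24.1 CPM in WT (log2 fold change 0.18, adjusted p = 0.340). It had the highest log2 fold change of the canonical 40S genes, 0.26 without WT replicate 1. Rps27a, which is made as a fusion to ubiquitin, showed a log2 fold change of -0.20 (adjusted p = 0.417), or -0.03 without WT replicate 1. Rpsa, also known as the laminin receptor precursor, had one of -0.10 (adjusted p = 0.717), which turned to 0.09 without that library.

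In the 60S subunit, none of the 10 listed genes of the catalytic core and the exit tunnel was called by edgeR or DESeq2 (median log2 fold change -0.20), and 3 of them, Rpl23a, Rpl10 and Rpl4, were lower at an unadjusted p under 0.05, a level at which 15.7% of all tested genes were lower. Rpl23a, at the mouth of the exit tunnel, had 244.8, 237.5 and 241.7 CPM in GSNOR KO, against 379.8, 298.6 and 292.0 CPM in WT. The groups did not overlap, and the log2 fold change of -0.42 (SE 0.135) had the smallest adjusted p among canonical members, 0.0932 in edgeR. Rpl10, which helps shape the site where peptide bonds form, averaged 240.6 ± 14.6 CPM in GSNOR KO and 324.9 ± 78.6 CPM in WT (log2 fold change -0.43, adjusted p = 0.161). Rpl4, which lines the tunnel, averaged 347.7 ± 21.6 CPM in GSNOR KO and 451.1 ± 54.99 CPM in WT (log2 fold change -0.38, adjusted p = 0.112). Their log2 fold changes were -0.26 for Rpl23a, -0.19 for Rpl10 and -0.24 for Rpl4 without WT replicate 1, none of them called.

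The stalk, which recruits the GTP-hydrolysing factors, did not show a shared direction among its 4 listed genes. Rpl12, at the base of the stalk (chr2:32961559-32965345, GRCm38), had 191.2, 159.3 and 179.0 CPM in GSNOR KO, against 329.3, 221.9 and 212.4 CPM in WT. It had the lowest log2 fold change of all canonical members, -0.53 (SE 0.188, edgeR adjusted p = 0.118), and was -0.27 without WT replicate 1. Rplp2, an acidic stalk protein, had 565.0, 484.8 and 522.1 CPM in GSNOR KO, against 497.3, 382.4 and 439.7 CPM in WT. Its groups overlapped by 1 library of each, and its log2 fold change of 0.25 (SE 0.138, adjusted p = 0.270) was the highest among canonical members, and 0.38 (adjusted p = 0.0380) without WT replicate 1. Its partner Rplp1 averaged 550.1 ± 22.7 CPM in GSNOR KO and 561.2 ± 97.4 CPM in WT (log2 fold change -0.03, adjusted p = 0.918), and its log2 fold change turned to 0.15 without that library. Rplp0, which anchors both acidic proteins, averaged 515.7 ± 56.4 CPM in GSNOR KO and 605.8 ± 159 CPM in WT. Its log2 fold change of -0.23 (adjusted p = 0.479) turned to 0.03 without WT replicate 1.

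Rpl5 and Rpl11 form a particle with the 5S ribosomal RNA, which outside the ribosome binds Mdm2, the ubiquitin ligase of p53. Rpl5 had 234.4, 181.6 and 223.2 CPM in GSNOR KO, against 328.3, 244.6 and 286.6 CPM in WT (log2 fold change -0.43, SE 0.157, adjusted p = 0.126). Rpl11 had 369.9, 345.4 and 370.9 CPM in GSNOR KO, against 393.2, 329.8 and 338.8 CPM in WT (log2 fold change 0.03, SE 0.119, adjusted p = 0.883). With WT replicate 1 left out they were -0.29 for Rpl5 and 0.15 for Rpl11. The groups were apart for Rpl5 and overlapped for Rpl11, and the difference between these members was not tested.

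In 3 canonical 60S genes, every GSNOR KO library lay above every WT library. Rpl36 (chr17:56613416-56614243), a 60S protein found in eukaryotes, had 303.3, 293.4 and 291.9 CPM in GSNOR KO, against 254.3, 246.3 and 251.6 CPM in WT. The groups were far apart relative to their spread, yet the log2 fold change was only 0.24 (SE 0.101, edgeR adjusted p = 0.168), and it was -0.03 once an offset for GC content was fitted. Rpl28, also of the 60S subunit, had 453.1, 451.9 and 459.4 CPM in GSNOR KO, against 399.2, 385.7 and 387.0 CPM in WT (log2 fold change 0.22, SE 0.103, adjusted p = 0.208). Rpl19, which reaches across to the 40S subunit, averaged 456.0 ± 8.12 CPM in GSNOR KO and 401.8 ± 15.8 CPM in WT (log2 fold change 0.18, adjusted p = 0.294).

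**Figure D3:**
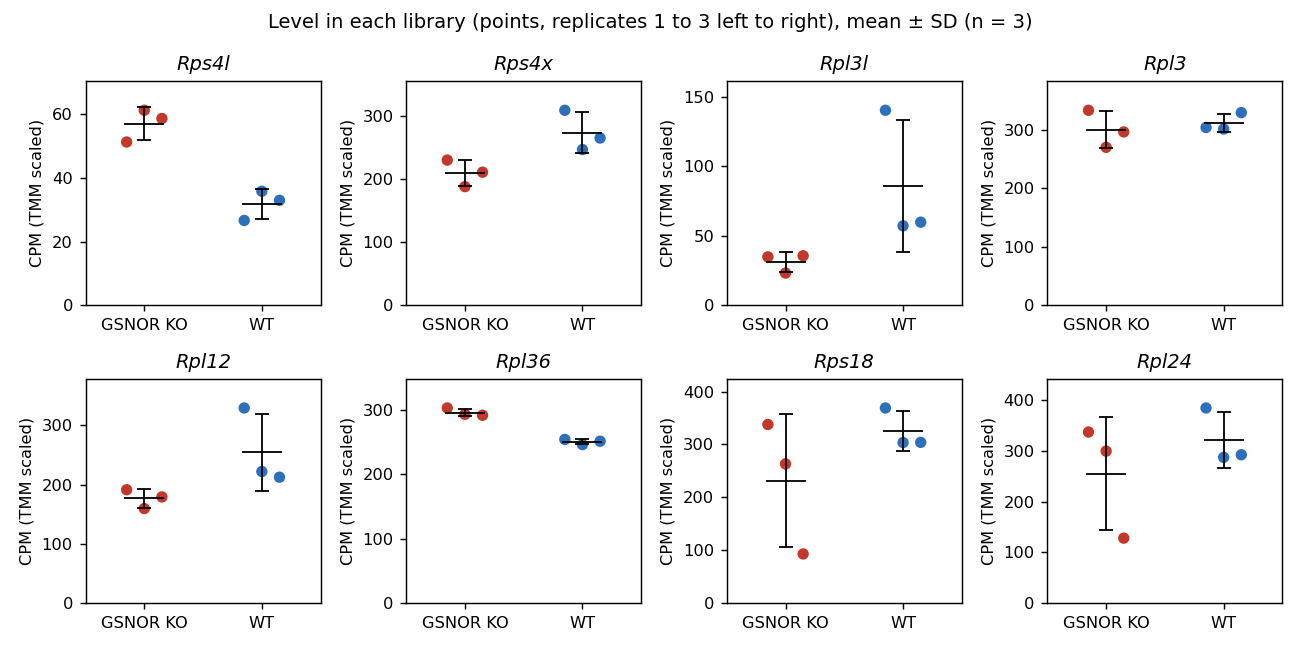
CPM (TMM scaled, vertical axes from 0) of 8 members in each library, with the mean and SD of 3 GSNOR KO and 3 WT samples. Rps4l lies higher in every GSNOR KO library, Rpl36 shows a narrow spread in both groups, and Rps18 and Rpl24 each have 1 low GSNOR KO library, replicate 3.

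Rps4l was the member called in the comparison of GSNOR KO with WT. It lies at chr6:148354656-148355598 on the plus strand in GRCm38, has a single-gene row of its own in the count table, and is annotated in GENCODE M21 as a transcribed processed pseudogene, whereas the other 80 members are annotated as protein coding. It had 51.3, 61.3 and 58.7 CPM in GSNOR KO, against 26.6, 35.8 and 33.0 CPM in WT. Every GSNOR KO library lay above every WT library, the log2 fold change was 0.84 (SE 0.141, 1.79-fold), and the edgeR adjusted p was 0.0243. Without WT replicate 1 the log2 fold change was 0.76 (adjusted p = 0.00177). The call was lost without GSNOR KO replicates 1, 2 or 3 (adjusted p = 0.0722, 0.134 and 0.127) and without WT replicate 2 (0.0622), while the log2 fold change stayed between 0.76 and 0.94 over the 6 leave-outs.

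The start of the Rps4l sequence is shown against that of its parent Rps4x, the X-linked 40S gene, because near-identical copies can trade reads. The stretches cover bases 1 to 60 of the Rps4x coding sequence and the aligned bases of Rps4l in GENCODE M21 transcripts, and capitals mark the 7 differences.
Rps4l: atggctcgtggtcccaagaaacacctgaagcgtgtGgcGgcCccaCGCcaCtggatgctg
Rps4x: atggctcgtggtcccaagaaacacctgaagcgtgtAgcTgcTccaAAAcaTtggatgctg
Over 783 aligned bases the sequences were 79.9% identical, and none of the 894 stretches of 50 bases in Rps4l occurred in Rps4x. Rps4x had 230.4, 188.3 and 211.2 CPM in GSNOR KO, against 309.5, 247.2 and 265.4 CPM in WT. The groups did not overlap, and the log2 fold change of -0.38 (SE 0.136) had an edgeR adjusted p of 0.117, and -0.26 without WT replicate 1 one of 0.111. Rps4l therefore stood at 22.3, 32.5 and 27.8% of the Rps4x level in GSNOR KO, against 8.61, 14.5 and 12.4% in WT, on the CPM scale. Rps4l lies inside the span of Tmtc1, for which the log2 fold change was -0.40 (adjusted p = 0.463). Of 11 tested genes within 1 Mb of it, 1 was called, Caprin2 (log2 fold change 0.92, adjusted p = 0.0300). The use of strand in the kit and in counting is not stated in the labels, so reads of overlapping genes may not be separable.

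Rpl3l showed the largest fold change of any member, and it went with skeletal muscle genes in every library. Rpl3l (chr17:24727820-24736143) is the paralog of Rpl3 that is known from skeletal and heart muscle, where it takes the place of Rpl3 near the catalytic centre. It had 34.8, 23.1 and 35.6 CPM in GSNOR KO, against 140.3, 57.1 and 59.8 CPM in WT. No GSNOR KO library reached the lowest WT library, and WT replicate 1 stood far above the other WT libraries. The log2 fold change was -1.46 (SE 0.373, edgeR adjusted p = 0.0594), and -0.88 without WT replicate 1 (adjusted p = 0.0183). The 17 matched skeletal muscle markers summed to 10680, 6914 and 10060 CPM in GSNOR KO, against 41800, 16780 and 17260 CPM in WT, and all 17 had a log2 fold change below 0, of which 7 were called. Rpl3l made up 0.326, 0.335 and 0.354% of that sum in GSNOR KO and 0.336, 0.340 and 0.346% in WT, so relative to muscle messenger RNA the groups overlapped. Eef1a2, the elongation factor form known from muscle and nerve, likewise averaged 100.2 ± 23.3 CPM in GSNOR KO and 328.5 ± 208 CPM in WT (log2 fold change -1.71, adjusted p = 0.0545).

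**Figure D4:**
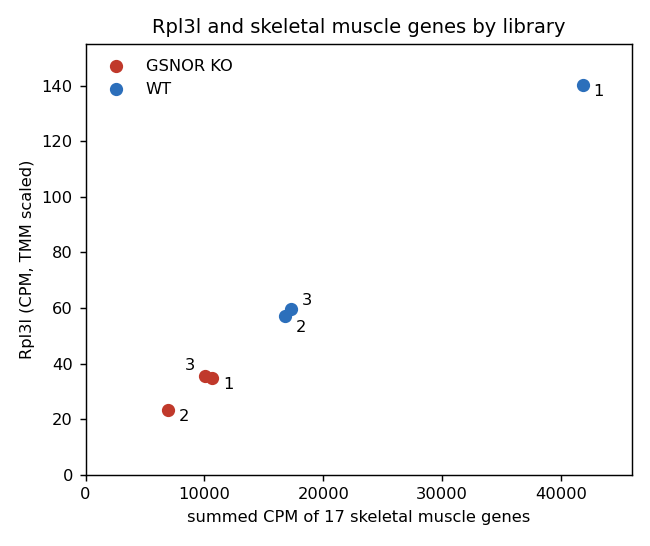
Rpl3l level (CPM, vertical axis) against the summed CPM of 17 skeletal muscle genes (horizontal axis) in the 3 GSNOR KO and 3 WT libraries, numbered by replicate. The points lie near a line through the origin, from GSNOR KO replicate 2 (6914 CPM of muscle genes) to WT replicate 1 (41800 CPM).

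The first 60 coding bases of Rpl3l are set against those of Rpl3, to show how far the reads of this pair can be told apart. Capitals mark the 13 differences.
Rpl3l: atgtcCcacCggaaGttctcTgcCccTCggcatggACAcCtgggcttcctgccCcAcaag
Rpl3: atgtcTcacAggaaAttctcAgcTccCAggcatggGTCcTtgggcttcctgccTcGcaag
The pair was 74.8% identical over 1183 aligned bases and shared none of 1593 stretches of 50 bases. Rpl3 had 333.1, 269.8 and 296.1 CPM in GSNOR KO, against 303.7, 301.1 and 329.1 CPM in WT (log2 fold change -0.05, adjusted p = 0.802). Rpl3l thus stood at 10.45, 8.58 and 12.02% of Rpl3 in GSNOR KO, against 46.2, 19.0 and 18.2% in WT, with no overlap.

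None of the other 4 paralogs was called. Rpl22l1, a paralog of the RNA-binding 60S protein Rpl22, had 35.7, 27.6 and 26.8 CPM in GSNOR KO, against 62.2, 43.1 and 33.7 CPM in WT (log2 fold change -0.63, SE 0.233, adjusted p = 0.131). Rpl22 averaged 104.1 ± 4.03 CPM in GSNOR KO and 125.5 ± 10.6 CPM in WT (log2 fold change -0.27, adjusted p = 0.159). The groups overlapped for Rpl22l1 and were apart for Rpl22, and without WT replicate 1 the log2 fold changes were -0.32 and -0.17 for Rpl22l1 and Rpl22. Rpl39l, a low row known from testis, averaged 2.04 ± 0.718 CPM in GSNOR KO and 3.23 ± 1.68 CPM in WT (log2 fold change -0.67, adjusted p = 0.351), or -0.12 without WT replicate 1. Its parent Rpl39, a small protein of the exit tunnel, showed a log2 fold change of -0.30 (adjusted p = 0.268), or -0.09 without that library. Rpl7l1 averaged 46.5 ± 1.53 CPM in GSNOR KO and 43.0 ± 4.92 CPM in WT (log2 fold change 0.11, adjusted p = 0.563; 0.23 without WT replicate 1). Rps27l, known as a target of p53, averaged 85.6 ± 2.78 CPM in GSNOR KO and 83.1 ± 9.20 CPM in WT (log2 fold change 0.04, adjusted p = 0.837; 0.16 without that library).

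Parents of the 7 listed paralogs all had log2 fold changes below 0, as did 63 of the 75 canonical members. The median of the parents was -0.30, and none was called. Without WT replicate 1 their median was -0.17, and all 7 lay below 0, against 39 of the 75 canonical members. Rpl7l1 stood at 14.65, 15.95 and 15.36% of Rpl7 in GSNOR KO, against 12.15, 11.44 and 12.81% in WT, with no overlap. The level of Rps27, a zinc-binding 40S protein, is uncertain, since 296 of its 1184 stretches of 50 bases also occur in its copy Rps27rt. Against the sum of Rps27 and Rps27rt, Rps27l stood at 51.7, 57.0 and 55.5% in GSNOR KO, against 48.0, 43.9 and 47.4% in WT. The Rpl7l1 and Rps27l ratios differ without overlap, as do those of Rps4l and Rpl3l given above. The groups overlapped for the other paralogs. Rpl22l1 stood at 33.46, 27.79 and 25.28% of Rpl22 in GSNOR KO, against 45.51, 37.26 and 27.18% in WT. Rpl39l stood at 3.271, 1.866 and 2.215% of Rpl39 in GSNOR KO, against 4.173, 2.545 and 2.513% in WT. No test was run on any of these ratios, and no background of other gene pairs is given. The level of Rps12 is uncertain because of shared stretches too, with 445 of 2302 in Rps12-ps3.

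In GSNOR KO replicate 3, 3 canonical members lay under 60% of their lowest other library, a pattern noticed after the values were seen. Rps18 (chr17:33951999-33956001), a protein of the 40S head, had 337.6, 263.1 and 92.6 CPM in GSNOR KO, against 368.9, 303.5 and 303.8 CPM in WT. Rpl24 (chr16:55966275-55971435), which forms a bridge to the 40S subunit, had 337.5, 299.8 and 127.9 CPM in GSNOR KO, against 385.0, 287.5 and 292.6 CPM in WT. Rpl18 (chr7:45715457-45720836) had 336.4, 307.0 and 160.8 CPM in GSNOR KO, against 414.0, 283.4 and 306.6 CPM in WT. In each of the 3, replicate 3 alone was low, at 35.2, 44.5 and 56.7% of the lowest other library for Rps18, Rpl24 and Rpl18. Their log2 fold changes of -0.49, -0.33 and -0.32 became -0.11, -0.01 and -0.05 without that library. Of 1267 genes averaging 100 CPM or more, 10 lay under 60% of the lowest other library in GSNOR KO replicate 3, the others being Hspa8, Ppia, H3f3a, TMEM134 and 3 rows with no gene name. By the same measure 11 genes lay low in GSNOR KO replicate 2 and 78 in WT replicate 1, none of them a member. The cause was not tested.

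The balance of the subunits was also compared. Summed over canonical members, 40S messenger RNAs stood at 71.0, 69.4 and 71.9% of 60S messenger RNAs in GSNOR KO, against 73.0, 72.9 and 72.9% in WT. Every GSNOR KO library lay below every WT library, and the same held with Rps18, Rpl18 and Rpl24 left out, at 72.1, 70.8 and 72.8% in GSNOR KO and 74.5, 73.9 and 74.0% in WT. The sums are dominated by the abundant members, the difference is about 2 percentage points, and no test was run on it.

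By deposited FPKM, which scales counts to length and library size, Rplp1 was the most abundant member with a mean of 2127 over the 6 libraries, followed by Rps29 (1759), Rpl41 (1543), Rpl36 (1417) and Rplp2 (1314). Rps29, a small zinc-binding 40S protein, averaged 249.8 ± 6.71 CPM in GSNOR KO and 246.3 ± 9.12 CPM in WT (log2 fold change 0.02, adjusted p = 0.918). Rpl41, which encodes a very short peptide at the subunit interface, averaged 533.5 ± 51.6 CPM in GSNOR KO and 472.8 ± 107 CPM in WT (log2 fold change 0.17, adjusted p = 0.563). Rpl41 was called higher without WT replicate 1, at 0.40 on the log2 scale (adjusted p = 0.0331). The lowest members were Rpl39l (5.17), Rpl7l1 (14.5), Rpl3l (43.2) and Rps4l (57.6). The order is approximate, since in 24 of 81 members the length implied by count and FPKM was under 50% of the GENCODE transcript length.

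Fold change went with base composition among the members. Across 75 canonical genes, Spearman's rho between the log2 fold change and the GC content of the longest coding transcript was 0.459, beside 0.346 across 13042 tested genes, and it stayed between 0.426 and 0.525 when any 1 library was left out. These points share the same 6 libraries and are not independent. Of the 37 canonical genes above the median GC content of 51.6%, 11 had a log2 fold change above 0 and their median was -0.07. Of the 38 at or under it, 1 was above 0 and their median was -0.23. Rps4l has a GC content of 59.1% and Rpl36 one of 60.8%. With an offset fitted for GC content, an alternative chosen after seeing the data, Rps4l showed a log2 fold change of 0.61 (adjusted p = 0.0475), and rho across canonical genes was -0.196. The 13 canonical genes with a TOP start, meaning C and 4 pyrimidines at the listed start, had a median of -0.11 on the log2 scale, and the 42 canonical genes of the promoter table without it had one of -0.20.

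**Figure D5:**
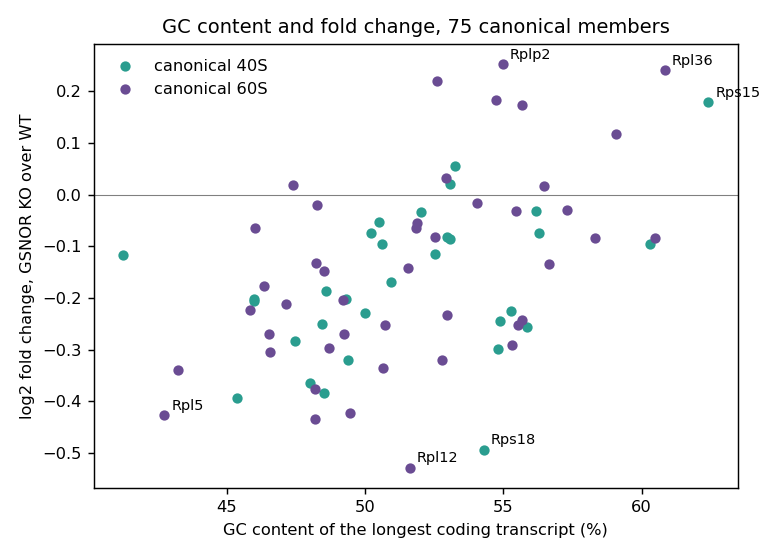
Log2 fold change (GSNOR KO over WT, vertical axis) against the GC content of the longest coding transcript in percent (horizontal axis) for 75 canonical members. Genes above the median GC content of 51.6% include 11 of the 12 with a log2 fold change above 0, and Spearman's rho is 0.459.

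Genes outside the name rule that belong to the same machinery include Fau and Gnb2l1. Fau, the ubiquitin-like fusion of a 40S protein, averaged 367.8 ± 24.8 CPM in GSNOR KO and 327.8 ± 33.5 CPM in WT (log2 fold change 0.17, adjusted p = 0.423). Gnb2l1, the gene of the 40S scaffold Rack1, averaged 264.5 ± 31.6 CPM in GSNOR KO and 328.2 ± 68.2 CPM in WT (log2 fold change -0.31, adjusted p = 0.282).

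Translation factors and other TOP messenger RNAs gave few calls as well, beside 3.9% of all tested genes called higher and 3.14% called lower. None of 12 elongation factors was called, with 2 lower at an unadjusted p under 0.05, and none of 29 initiation factors, with 5 lower at that level. At that unadjusted level 12.9% of all tested genes were higher and 15.7% lower. Eef1a1, which brings charged transfer RNAs to the ribosome, showed a log2 fold change of -0.13 (adjusted p = 0.5004), and Eef2, which moves the ribosome along, had one of 0.06 (adjusted p = 0.806). Of 17 other TOP messenger RNAs, Nap1l1, a histone chaperone, fell (log2 fold change -1.03, adjusted p = 0.0421) and the other 16 were not called. Leaving out WT replicate 1 gave it the same log2 fold change of -1.03 with an adjusted p of 0.0693, and it was not called. Of 63 ribosome biogenesis genes, Polr1b, a subunit of RNA polymerase I, rose (log2 fold change 0.48, adjusted p = 0.0491). None of 13 genes of ribophagy and ribosome stress was called, with 2 higher and 2 lower at an unadjusted p under 0.05. Without WT replicate 1, where 11.8% of all genes were called higher and 8.77% lower, ribosome biogenesis had 9 higher and 0 lower, initiation factors 4 higher and 1 lower, elongation factors 0 higher and 2 lower, other TOP messenger RNAs 2 higher and 0 lower, and ribophagy and ribosome stress 1 higher and 1 lower. With the GC offset none of these 5 lists had a call, but the share of all tested genes called in that fit is not given.

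Of 28 genes of mTORC1 and Myc control, 2 rose and none fell, beside 3.9 and 3.14% of all tested genes. Without WT replicate 1 the list had 5 higher and 2 lower, in a fit where 11.8% of all genes were called higher and 8.77% lower. Mtor, the kinase of the complex, had 102.4, 109.4 and 99.6 CPM in GSNOR KO, against 71.4, 64.4 and 66.9 CPM in WT (log2 fold change 0.62, SE 0.102, edgeR adjusted p = 0.0234). Sesn2, a leucine sensor that restrains mTORC1, rose as well (log2 fold change 0.67, adjusted p = 0.0434). With the GC offset Mtor had an adjusted p of 0.0446 and Sesn2 one of 0.118. In the fit without an offset, Larp1, which binds TOP messenger RNAs, had a log2 fold change of -0.14 (edgeR adjusted p = 0.486). In that fit the log2 fold change of Eif4ebp1, a translation repressor and mTORC1 substrate, was 0.12 (adjusted p = 0.655). That of Myc, a driver of ribosome production, was -1.03 (adjusted p = 0.242).

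Proteins of the mitochondrial ribosome, which are encoded by separate nuclear genes, were set beside the cytosolic ones. Of 75 tested, 5 rose (Mrps34, Mrpl55, Mrpl34, Mrpl38 and Mrps7), against 3.9% of all tested genes, and none fell, with a median log2 fold change of 0.16, against -0.17 for the cytosolic members and -0.04 for all tested genes. Mrps34 averaged 117.0 ± 1.36 CPM in GSNOR KO and 78.0 ± 2.39 CPM in WT (log2 fold change 0.58, edgeR adjusted p = 0.0232). Mrpl34 averaged 114.1 ± 11.4 CPM in GSNOR KO and 71.3 ± 7.61 CPM in WT (log2 fold change 0.68, adjusted p = 0.0321). Without WT replicate 1, 29 of the 75 were called higher, against 11.8% of all genes, with a median of 0.30. Mrps34 has a GC content of 60.6% and Mrpl34 one of 58.3%. With the GC offset 2 of the 75 were called higher and the median was 0.19. The share of all tested genes called in that fit is not given, so this count has no background beside it. The log2 fold changes of Mrps34 and Mrpl34 with the offset were 0.32 (edgeR adjusted p = 0.111) and 0.45 (adjusted p = 0.0956). Brown and beige adipocytes are rich in mitochondria. Their 10 markers summed to 5114 to 6428 CPM in GSNOR KO and 2890 to 4460 CPM in WT, with no overlap. Of the 10 markers, 3 were called higher, against 3.9% of all tested genes, and 7 had a log2 fold change above 0 and 3 below. In 6 markers every GSNOR KO library lay above every WT library, against 17.3% of all tested genes. In 1 marker every GSNOR KO library lay below every WT library, against 19.5%. The part of these markers in the mitochondrial ribosomal protein values was not tested.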

How the data were processed

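Frozen tissue was extracted with TRIzol, poly-T beads selected the messenger RNA, and Illumina libraries were primed at random, per the labels' protocols. The authors deposited raw counts per gene, as whole numbers with no normalization, and FPKM, which they scaled to length and library size, per the file headers. Per the submitters' processing notes the build was GRCm38 (mm10). No source used here gives the aligner, the counter or the use of strand, so overlapping genes and near-identical copies may share counts. Total counts per library were 20277594 to 23961574, and 3 counts equal 0.131 to 0.138 CPM.

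Counts were tested with edgeR 4.0.16 in R 4.3.3. TMM factors (0.931 to 1.08) scaled the libraries, filterByExpr kept 13694 genes, and 3 GSNOR KO were compared with 3 WT samples by the quasi-likelihood F test (robust fit). P-values had the Benjamini-Hochberg adjustment over all tested genes, and an adjusted p under 0.05 was a call. CPM are TMM scaled, and SE is the ratio of the log2 fold change to the square root of F. FPKM served only to rank levels. An exact permutation test of 3 against 3 cannot go below 0.10, so single values were judged by the fit across genes. The script was tested on simulated data. Coordinates, lengths and GC content come from GENCODE M21 and start windows from RefSeq on GRCm38.p6.

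The members, the role lists and the gene lists (393 of 417 entries matched by symbol and 7 by identifier) were chosen with earlier results of these data known. Named genes are the called member, the 6 highest by FPKM, the 4 highest and 4 lowest by log2 fold change with a mean of at least 5 CPM, members fixed for their role, paralogs with their parents, translation and mTORC1 genes, and called genes of each list. Rps15, Rpl4, Rpl10, Rpl18, Rpl19, Rpl23a, Rpl24, Eef1a2 and the neighbours of Rps4l were named after their values were seen. Single-gene results that the rule would also name are in part not reported here. Alternatives were other scalings and filters, no robust dispersion, the replicate block, length and GC offsets, DESeq2 1.42.0, limma 3.58.1 voom, and leaving out each library.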

Additional observations from a re-analysis of the deposited data

How the results depend on the processing

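The 13 members followed one by one kept the direction of their log2 fold change under 18 alternatives, with 2 exceptions. Rplp0 ran from -0.355 to 0.0328 over the leave-outs, the value without WT replicate 1 being 0.0328, and Rpl36 turned to -0.0283 with the GC offset, and the cause was not tested. The number of members called higher in GSNOR KO, 1 in the reported fit, was 0 with the members' summed count as library size, 0 with the length offset and 2 in DESeq2, and 0 to 4 when each library was left out. The number called lower, 0 in the reported fit, was 1 with library totals outside the mitochondrial genome, 1 with the members' summed count, 1 in DESeq2 and 2 with the length offset (Rpl3l and Rpl23a), and 0 to 1 in the leave-outs. The members' median log2 fold change ran from -0.213 to -0.00999 over the leave-outs, the value without WT replicate 1 being -0.00999, and was -0.145 without Rps18, Rpl18 and Rpl24. Over all genes, leaving out GSNOR KO replicates 1, 2 or 3 left 5, 3 and 3 calls and leaving out WT replicate 2 left 13, against 2844 without WT replicate 1 and 915 without WT replicate 3, so calls lost there concern the fit as a whole.

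Calls in the context lists, 9 higher and 1 lower in GSNOR KO in the reported fit, were 4 and 2 with library totals alone, 20 and 6 in DESeq2 and 3 and 0 with the GC offset. Voom gave 5 higher, totals outside the mitochondrial genome gave 3 lower, and the leave-outs gave 0 to 51 higher and 0 to 6 lower. Deviations of same-numbered samples had correlations of 0.158, 0.132 and -0.0556, against -0.216 to 0.186 for differently numbered samples. The labels state no pairing, and values this weak cannot decide whether the numbers pair the samples. With the replicate number as a block, 1 member was called higher (Rps4l) and 1 lower (Rpl3l), and the context lists gave 4 higher and 2 lower. The members' share of counts, 0.274 percentage points lower in GSNOR KO, was lower by 0.108 to 0.425 over the leave-outs. The CPM of 3 counts covers counting error only.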
